A study of Mus musculus with 6 samples.

Results

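The 10 genes described here encode the 5 subunits of the transcription factor NF-κB (Nfkb1, Nfkb2, Rel, Rela and Relb) and 5 proteins that hold it in check (Nfkbia, Nfkbib, Nfkbie, Nfkbiz and Tnfaip3). They were taken by gene symbol from a count matrix of 24421 genes. All 10 were present, and all 10 passed the filter on low counts that left 11658 genes for testing. The libraries were made from CD4+YFP+ regulatory T (Treg) cells sorted from the spleens of young adult female C57BL/6 mice. Both groups carried the Foxp3Cre-YFP allele, in which the endogenous Foxp3 promoter drives a fusion of Cre recombinase and yellow fluorescent protein, so Foxp3-expressing cells were both the cells that lost the floxed gene and the cells that were sorted. The 3 control libraries (WT) came from Foxp3Cre mice and the 3 knockout libraries (KO) from Foxp3Cre miR-142 fl/fl mice. The comparison of KO with WT asks how these transcripts differ in Treg cells that lack miR-142. KO mice develop autoimmune disease, so the absence of the microRNA and an inflamed host cannot be told apart in this design.

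NF-κB is a family of dimers built from Rel-homology proteins. In resting cells most dimers are kept in the cytoplasm by inhibitors of the IκB family, and signals from the T cell receptor or from TNF receptors activate the IκB kinase (IKK) complex, which marks IκB for destruction and frees the dimer. A slower, noncanonical route runs through the kinase NIK and processing of the Nfkb2 product p100, and releases dimers that contain RelB. Several inhibitor genes are themselves switched on by NF-κB and so act as feedback brakes. In Treg cells c-Rel takes part in induction of Foxp3, and RelA and c-Rel maintain the mature, activated population.

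The libraries held between 13883069 and 24042994 counts. Foxp3 lay between 562 and 604 CPM (a gene's counts scaled to the library total) in WT and between 621 and 713 CPM in KO libraries, and Mir142b, the transcript annotated antisense over the deleted locus, between 4.20 and 9.49 CPM in WT and between 0.337 and 0.376 CPM in KO. All KO libraries exceeded all WT libraries in the summed markers of other blood cells, and that of KO replicate 1 stood far apart. The summed CPM of 12 monocyte and macrophage genes was 2766 there, against 75.2 and 20.2 in KO replicates 2 and 3 and at most 13.9 in any WT library, and 12 neutrophil genes summed to 946 CPM there, to 7.49 and 40.9 CPM in KO replicates 2 and 3 and to at most 1.36 CPM in any WT library. For 8 B cell genes the sum was 2240 CPM in that library, with 192 and 281 CPM in KO replicates 2 and 3 and 60.8 to 75.6 CPM over the WT libraries. In KO replicates 2 and 3 these sums rested on part of each list. Of the monocyte and B cell genes that passed the filter, Cd74, Vcam1 and Lyz2 exceeded every WT library there. Cd74 had 194 and 273 CPM after scaling between libraries. Cd68, Itgam, Cd79a and Cd79b lay below every WT library. Myeloid and B cells express NF-κB genes too, so values without KO replicate 1 are given beside many of the results, though not all. The part of other cells in any of the results was not tested.

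The microRNA removed in the KO mice yields a pair of mature strands from chromosome 11. They are shown 5′ to 3′ from RefSeq (GRCm38.p6), with the seed, bases 2 to 8, in capitals, because the seed sets which 3′ UTR sequences a microRNA can pair with.
mmu-miR-142a-3p: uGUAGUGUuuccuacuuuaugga
mmu-miR-142a-5p: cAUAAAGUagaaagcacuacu

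Rel, Nfkbib and Nfkbie held such a match, and the other members did not. In the longest annotated 3′ UTR of each gene (GENCODE vM21, GRCm38), 7-base matches to the 3p seed, to the 3p seed shifted by 1 base (bases 3 to 9 of the strand) and to the 5p seed were searched on the transcript strand. A match was the complement of 7 seed bases, or of 6 seed bases followed by A. The complement of the 3p seed is ACACTAC, found here in none of the 10 genes, and the form with the final base reads CACTACA, likewise not found. For the shifted 3p seed the letters were AACACTA, present in Rel and Nfkbib, while the form with the final base was ACACTAA, present in Nfkbie. For the 5p seed the letters were ACTTTAT, present in Rel, whose 3′ UTR also holds the form with the final base, CTTTATA, elsewhere in its sequence. At least 1 match was present in 3 of the 10 genes, against 37.4% of the 10786 tested genes with a 3′ UTR. The 10 genes had shorter 3′ UTRs, with a median of 757 bases against 1186. No match to the unshifted 3p seed was present in any of the 10, a match that 12.2% of tested genes had. Allowing 6-base matches added Rela and Tnfaip3, with 1 match each to the 5p seed, a length of match that 40.1% of tested genes had for that strand. The matches are printed below with their flanking bases, the match in capitals, since they are all the 7-base matches found in these 10 transcripts.
Nfkbie, shifted 3p seed: attctaatatgACACTAAaatggaagaga
Nfkbib, shifted 3p seed: gtttatgtagcAACACTAgaagtgaatcc
Rel, shifted 3p seed: gagaactttaaAACACTAttggctatggt
Rel, 5p seed, first match: ctgcctcccagACTTTATttatttttttt
Rel, 5p seed, second match: gtttttagcagCTTTATAatttttggtaa
The match in Nfkbie lies at chr17:45562706-45562712 on the plus strand, in exon 6. That in Nfkbib lies at chr7:28758384-28758390 on the minus strand, in exon 7. The 3 matches in Rel lie on the minus strand of chromosome 11 in exon 10, at chr11:23737318-23737324 for the shifted 3p seed and at chr11:23737849-23737855 and chr11:23737563-23737569 for the 5p seed, in a 3′ UTR of 5418 bases. A match describes letters only and does not show that the site is used.

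Of the 10 genes, 2 were higher in KO Treg cells and 0 were lower. Relb, whose product pairs with the Nfkb2 product in the noncanonical route, and Nfkbie, which encodes the cytoplasmic inhibitor IκBε, passed the test. The most abundant subunit by CPM, Nfkb1, and its partner Rela had fitted differences close to 0. A gene was called by the quasi-likelihood F test of edgeR (QLF) at an FDR (Benjamini-Hochberg adjusted p over all 11658 genes) under 0.05. The share of 2 in 10 is close to the background, because 18.8% of all tested genes were called, 11.6% higher and 7.27% lower in KO. Both genes also passed edgeR's likelihood ratio and exact tests, and 17.1% of tested genes passed all 3 tests. With scaling by library size alone, all tested genes split into 1064 higher and 1201 lower, in place of 1350 and 847, and the 10 genes still into 2 higher and 0 lower. No member was lower at an unadjusted p under 0.05 either, where 4 were higher (34.8% of tested genes passed in either direction), and DESeq2 called 4 higher and 0 lower. The median log2 fold change was 0.20 over the 10 genes and 0.02 over all tested genes. The KO libraries all exceeded the WT libraries for 4 of the 10 genes, against 22.2% of tested genes, and all fell short of them for 0 of the 10, against 18.8% (41% in either direction). With 3 libraries per group an exact two-sided permutation test on a single gene cannot go below p = 0.1, the smallest it allows, and the calls come from the fit over all tested genes. Each value below is a TMM-normalized CPM, TMM being edgeR's scaling between libraries, and fold changes are KO over WT with the standard error (SE) of the fit.

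**Figure D1:**
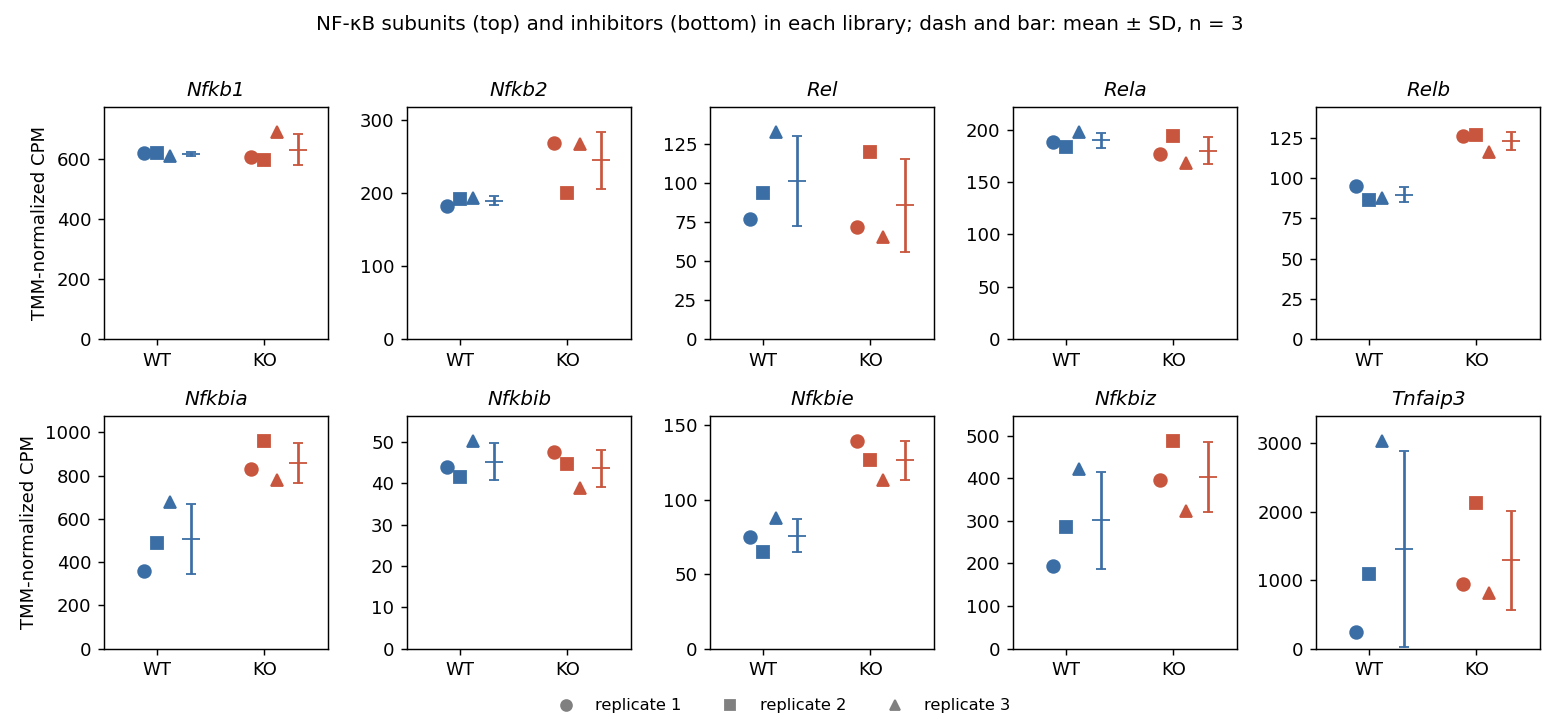
TMM-normalized CPM (vertical axes, from 0) of each of the 10 genes in the 3 WT (blue) and 3 KO (red) libraries, with marker shapes for the replicate and the mean ± SD (n = 3) beside the points. The KO points lie above all WT points for Nfkb2, Relb, Nfkbia and Nfkbie, and Tnfaip3 spans 246 to 3030 CPM within WT.

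Among the subunits, Relb had 95.2, 86.2 and 87.8 CPM in the WT libraries and 126, 127 and 116 CPM in the KO libraries. The groups did not overlap and each was tight, with means of 89.8 ± 4.75 and 123 ± 5.78 CPM (SD, n = 3 per group). In KO the gene was 1.37-fold higher, a log2 fold change of 0.46 (SE 0.08, edgeR QLF FDR = 0.0114). Without KO replicate 1 it was 0.42 (edgeR QLF FDR = 0.0211), and KO replicates 1 and 2 were level with each other. The call was lost without WT replicate 2 (edgeR QLF FDR = 0.0703) and without WT replicate 3 (edgeR QLF FDR = 0.0638), with log2 fold changes of 0.43 and 0.44. No 7-base seed match was present in the 336-base 3′ UTR of Relb.

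Nfkb2 encodes p100, the precursor of p52 and itself an IκB-like inhibitor of RelB. Its WT libraries held 182, 192 and 194 CPM and its KO libraries 269, 200 and 267 CPM. All KO libraries exceeded all WT libraries, KO replicate 2 only narrowly. Its log2 fold change of 0.37 (SE 0.13, edgeR QLF FDR = 0.0795) did not pass the threshold. Without KO replicate 1, the highest library, it was 0.285 (edgeR QLF FDR = 0.172). Of the 6 refits with a library left out, only that without KO replicate 2 passed, at 0.505 (edgeR QLF FDR = 0.00871). Counting took no account of strand, and 299 exon bases of Nfkb2 are shared with Psd on the opposite strand. On that strand 531 are shared with AC114539.1, which has no row in the count matrix.

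Nfkb1 encodes p105, the precursor of the DNA-binding subunit p50. It was measured at 621, 619 and 609 CPM in WT and at 606, 596 and 691 CPM in KO. The WT libraries differed by only 1.02-fold between the lowest and the highest, and the KO libraries lay on both sides of them. The log2 fold change was 0.03, with a 95% interval from -0.18 to 0.25 (edgeR QLF FDR = 0.823), and its sign turned with scaling by library size alone (-0.04).

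Rela encodes p65, the main transactivating subunit of the canonical dimer. It had 188, 184 and 198 CPM in WT and 177, 194 and 168 CPM in KO. The groups overlapped, and the log2 fold change of -0.08 had a 95% interval from -0.28 to 0.12 (edgeR QLF FDR = 0.556). For both Nfkb1 and Rela the interval leaves out a 1.37-fold rise such as that fitted for Relb.

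Rel, the gene for c-Rel, varied within each group. Its libraries held 76.9, 93.5 and 133 CPM in WT and 71.8, 120 and 65.6 CPM in KO. WT replicate 3 and KO replicate 2 were high and the other 4 libraries were lower, without regard to genotype. The log2 fold change was -0.24, with a 95% interval from -0.89 to 0.41 (edgeR QLF FDR = 0.585), and without WT replicate 3 it was 0.005. Rel is also the member with the most seed matches.

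**Figure D2:**
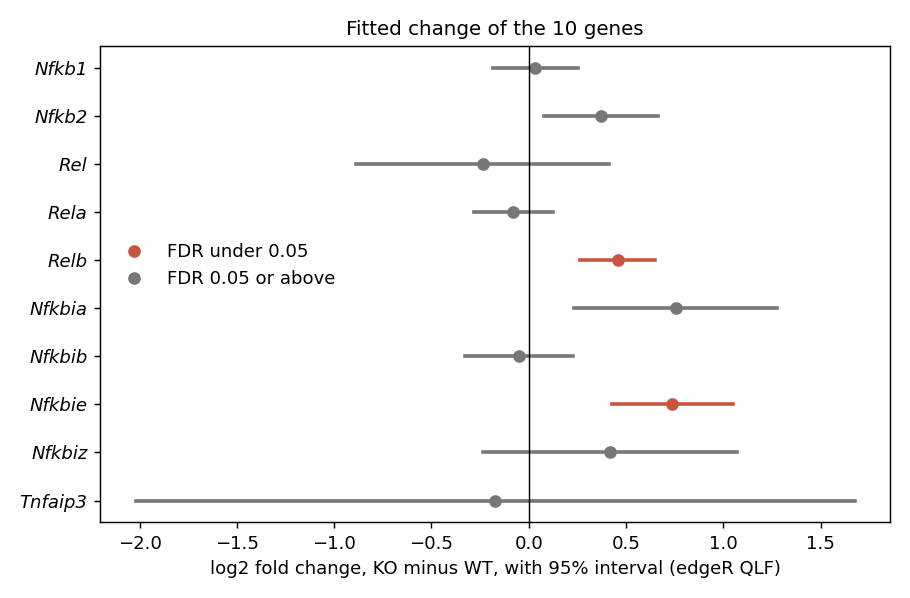
Fitted log2 fold change, KO minus WT (horizontal axis), of the 10 genes with its 95% interval from the edgeR QLF fit. Relb and Nfkbie (red) passed an FDR of 0.05, and the interval of Tnfaip3, from -2.02 to 1.67, was the widest of the 10.

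Among the inhibitors, Nfkbie had 75.0, 64.9 and 87.5 CPM in WT and 139, 127 and 113 CPM in KO. Even the lowest KO library exceeded the highest WT library, and the means were 75.8 ± 11.3 and 126 ± 13.0 CPM (SD, n = 3 per group). This was a 1.67-fold difference, or 0.74 on the log2 scale (SE 0.13, edgeR QLF FDR = 0.0112). Without KO replicate 1, the highest library, it was 0.65 (edgeR QLF FDR = 0.0146). It missed the threshold narrowly without WT replicate 1 (edgeR QLF FDR = 0.0522) and without WT replicate 2 (edgeR QLF FDR = 0.051). Nfkbie is the only called member with a seed match, the shifted 3p match printed above. That match type, a 7-base match to the shifted seed, was present in 15.4% of tested genes.

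Nfkbia encodes IκBα, the inhibitor that is degraded first on activation and resynthesized under NF-κB control. Its WT libraries held 358, 487 and 677 CPM and its KO libraries 831, 960 and 779 CPM. All KO libraries were above all WT libraries, yet the WT libraries themselves spanned a 1.89-fold range. A log2 fold change of 0.76 (SE 0.22, edgeR QLF FDR = 0.0543) was as large as that of Nfkbie, with a wider error. Without KO replicate 1 the log2 fold change was 0.76 (edgeR QLF FDR = 0.0604). The call depended on the test, since DESeq2 gave an adjusted p of 0.00404, the edgeR likelihood ratio test an FDR of 0.0129 and the edgeR exact test an FDR of 0.0133. Leaving out WT replicate 3, the WT library nearest to KO, gave 1.02 (edgeR QLF FDR = 0.028), and leaving out WT replicate 1 gave 0.53.

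Nfkbib encodes IκBβ, a cytoplasmic inhibitor whose gene is less inducible. It was flat across all libraries, with 44.0, 41.5 and 50.3 CPM in WT and 47.6, 44.7 and 38.8 CPM in KO. The groups overlapped, and the log2 fold change was -0.05 with a 95% interval from -0.33 to 0.23 (edgeR QLF FDR = 0.793). On the opposite strand 42 exon bases are shared with Sirt2, and 314 with Ccer2, which has no row in the count matrix.

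Nfkbiz encodes IκBζ, a nuclear member of the family that binds p50 on chromatin and can promote as well as restrain transcription. It had 194, 286 and 422 CPM in WT and 396, 487 and 323 CPM in KO. The lowest libraries were WT replicates 1 and 2, but WT replicate 3 lay above a pair of the KO libraries. Between the groups the log2 fold change was 0.42 (SE 0.28, edgeR QLF FDR = 0.33). It was 0.16 without WT replicate 1 and 0.74 without WT replicate 3.

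Tnfaip3 encodes A20, an enzyme that edits ubiquitin chains on signalling adaptors upstream of IKK. It was the most variable of the 10 genes, with 246, 1087 and 3030 CPM in WT and 941, 2123 and 809 CPM in KO. WT replicate 1 was the lowest library and WT replicate 3 the highest, a 12.3-fold range inside the control group, and the KO libraries fell between them. The SD of log2 CPM over the WT libraries placed Tnfaip3 at position 10 of the 11658 tested genes, from the largest down. Its log2 fold change of -0.17 had an SE of 0.79 (edgeR QLF FDR = 0.899). It moved from 0.95 without WT replicate 3 to -0.73 without KO replicate 2, so its direction was not determined in these libraries.

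Levels of different genes were compared per kilobase of annotated exon, as TMM-normalized CPM divided by the union of exons in GENCODE vM21, which overstates the length of genes with many alternative exons. In WT the order was Nfkbia at 315 ± 99.6, Tnfaip3 at 201 ± 198, Rela at 61.8 ± 2.40, Nfkbiz at 60.0 ± 22.8, Nfkb1 at 51.1 ± 0.521, Nfkb2 at 41.3 ± 1.36, Nfkbie at 24.9 ± 3.72, Relb at 23.1 ± 1.22, Nfkbib at 20.9 ± 2.08 and Rel at 13.5 ± 3.84 CPM per kb (SD, n = 3). Neighbours in this order overlapped between libraries, except that Nfkb1 lay apart from Nfkb2, Nfkb2 from Nfkbie and Nfkbib from Rel. In KO, Nfkbia had 532 ± 57.9 and Nfkbie 41.5 ± 4.27 CPM per kb (SD, n = 3), and the libraries of Nfkbie no longer overlapped those of Relb, at 31.7 ± 1.49. Thus the inhibitor IκBα had the highest mean transcript level of the 10 per kb in both groups, and c-Rel the lowest.

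Tnfaip3, Nfkbiz, Nfkbia and Rel varied together from mouse to mouse inside each genotype. On log2 CPM centred on the group means, the 6 pairs among these 4 genes had Pearson correlations between 0.85 and 0.99 over the 6 libraries, Tnfaip3 with Nfkbia at 0.99 and Tnfaip3 with Nfkbiz at 0.98. The other 39 pairs of members ranged from -0.79 to 0.96 with a median of 0.03. These are descriptions over 6 points that share libraries, and the 4 genes were grouped after their values were seen. In each of the 4, WT replicate 1 was the lowest and WT replicate 3 the highest of the WT libraries, and KO replicate 2 was the highest of the KO libraries.

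Genes known for rapid induction shared that order in part. Of 13 such genes, listed after the pattern was seen, all 13 were lowest in WT replicate 1 among the WT libraries, 9 were highest of all 6 libraries in WT replicate 3, and 11 had a within-group correlation with Tnfaip3 above 0.8. No share over all tested genes stands beside these counts, so they are a description and do not set these genes apart from others. Junb, a subunit of the AP-1 transcription factor, had 476, 1470 and 3080 CPM in WT and 845, 1401 and 1104 CPM in KO. Fosb, another AP-1 subunit, departed from the order, with its highest WT value in WT replicate 2 and its highest KO value in KO replicate 3. It had 8.50, 430 and 256 CPM in WT and 144, 327 and 329 CPM in KO. Cd69, an early surface marker of T cell activation, had 83.3, 176 and 281 CPM in WT and 130, 270 and 131 CPM in KO. None of the 13 was called between the groups by the edgeR QLF test, against 18.8% of all tested genes. The part that this spread plays in the results for Nfkbia, Nfkbiz, Rel and Tnfaip3 was not tested. Relb and Nfkb1 did not follow it, with within-group correlations with Tnfaip3 of -0.40 and -0.37, and that of Nfkb2 was -0.19. Rela, Nfkbib and Nfkbie lay between, at 0.59, 0.48 and 0.37. Within groups Rela also correlated with Rel at 0.89, over a narrow range of its own.

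**Figure D3:**
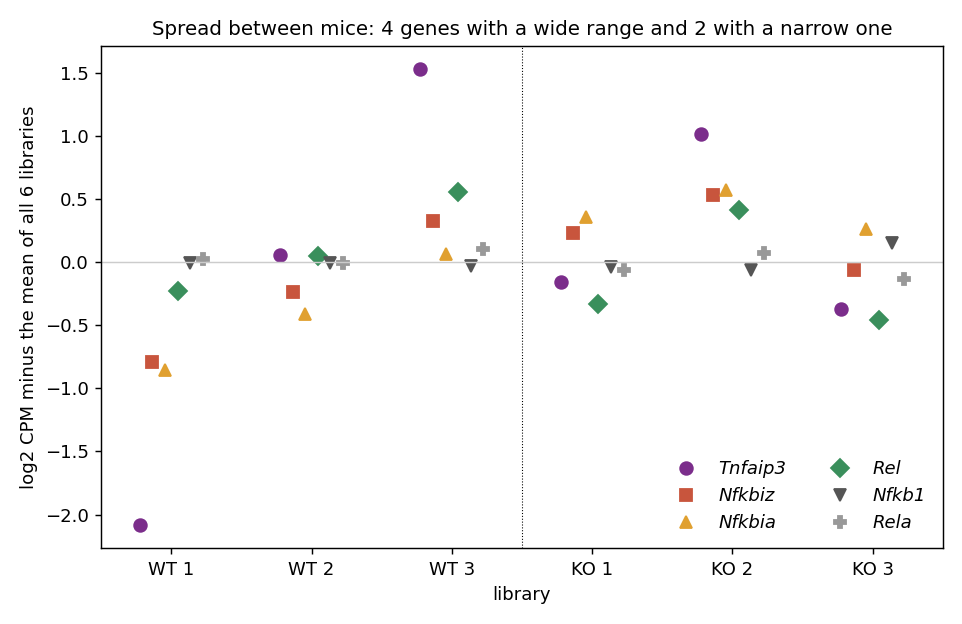
Log2 of TMM-normalized CPM minus the gene's mean over the 6 libraries (vertical axis) in each library (horizontal axis) for Tnfaip3, Nfkbiz, Nfkbia, Rel, Nfkb1 and Rela. Tnfaip3 runs from the lowest point, in WT replicate 1, to the highest, in WT replicate 3, with Nfkbiz, Nfkbia and Rel moving the same way. Nfkb1 and Rela span a narrow range and stay near 0.

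For each member the tested genes with the most similar profile were taken by Pearson correlation of log2 CPM over the 6 libraries, a description without a test. For Relb they were Otub1, Fzd6 and Adamtsl2, with correlations of 0.998, 0.996 and 0.996. For Nfkbie they were Tbc1d22a, Stk39 and Pwwp2b, each between 0.996 and 0.998. For Tnfaip3 they were Snora28, Ptges3l and Rin1, and for Nfkbiz they were Map1lc3b, Eid3 and Ctla4, the last the gene of an inhibitory receptor of Treg cells. For Rel they were Cxcr4, Mir17hg and Malat1, with correlations between 0.989 and 0.995. With 11658 genes and 6 libraries, correlations this high are easily met.

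The promoters of several members held the κB consensus, the 10-base motif that NF-κB dimers bind. RefSeq promoter sequences (GRCm38.p6, 250 bases before to 50 after the transcript start) were at hand for Nfkb2, Rel, Rela, Nfkbia, Nfkbib, Nfkbie and Tnfaip3, and both strands were searched. No sequence was at hand for Nfkb1, Relb and Nfkbiz, which were not searched. The 10 promoters include 3 of Nfkb2 and 2 of Tnfaip3. Of the 10, 7 held at least 1 match and 4 held at least 2, overlapping matches counted separately. Among the 11407 promoters of tested genes the shares were 10.4% and 1.47%. The genes with a match were Nfkb2, Rel, Nfkbia, Nfkbie and Tnfaip3, and the searched genes without were Rela and Nfkbib. A match of each, with 10 flanking bases on either side and the match in capitals, is shown along the strand of the gene, because Rela and Nfkbib had none. For Nfkb2 a match is shown at each of a pair of starts.
Nfkbia, 29 bases before the start: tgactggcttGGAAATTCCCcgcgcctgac
Tnfaip3, 12 bases before the start: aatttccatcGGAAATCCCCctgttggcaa
Nfkbie, 106 bases before the start: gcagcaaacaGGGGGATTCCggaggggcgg
Rel, 92 bases before the start: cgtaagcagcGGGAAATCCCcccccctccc
Nfkb2, 11 bases before a first start: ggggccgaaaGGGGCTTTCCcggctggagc
Nfkb2, 11 bases after a second start: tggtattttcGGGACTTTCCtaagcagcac
The match of Nfkbia lies at chr12:55492667-55492676, that of Tnfaip3 at chr10:19015413-19015422, that of Nfkbie at chr17:45555594-45555603, that of Rel at chr11:23771052-23771061, and those of Nfkb2 at chr19:46304726-46304735 and chr19:46305705-46305714. Both called and uncalled members held a match, Nfkbie (called) and Tnfaip3, Rel, Nfkb2 and Nfkbia (not called). A match does not show that a factor was bound in these cells.

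Of 58 other genes of the pathway, all of which were tested, 7 were higher and 4 lower in KO by the edgeR QLF test. That is 19.0%, next to 18.8% of all tested genes, and their median log2 fold change was 0.04. Without WT replicate 2 the counts were 1 and 1, and without KO replicate 1 they were 7 and 6, with 10 of the 11 calls still made. Among 7 kinases, Ikbkb, the catalytic IKK subunit that phosphorylates IκB in the canonical route, fell from a mean of 311 ± 10.7 CPM in WT to 218 ± 16.0 CPM in KO (SD, n = 3 per group), which is -0.51 on the log2 scale (SE 0.09, edgeR QLF FDR = 0.00987). The groups lay wide apart, and no other kinase of the list was called. Chuk, the IKK subunit of the noncanonical route, had a log2 fold change of -0.19 (edgeR QLF FDR = 0.412), and Map3k14, the gene for NIK, one of -0.28 (edgeR QLF FDR = 0.109). Ikbkg, the scaffold NEMO, had one of 0.07 (edgeR QLF FDR = 0.766).

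Of 22 receptors, adaptors and ubiquitin ligases, 3 were higher and 1 lower. Birc2 and Birc3 encode the ligases cIAP1 and cIAP2, which act in TNF receptor signalling and hold NIK low in resting cells. Birc2 rose from 149, 181 and 190 CPM to 380, 463 and 382 CPM, a log2 fold change of 1.24 (SE 0.13, edgeR QLF FDR = 0.00182), the largest in these lists outside the target genes. Birc3 rose less, by 0.42 on the log2 scale (edgeR QLF FDR = 0.0226). Tnfrsf1a, the TNF receptor with a death domain, rose from 38.6, 37.0 and 37.0 CPM to 101, 62.1 and 62.2 CPM (edgeR QLF FDR = 0.0148). KO replicate 1 was the highest library, and without it the log2 fold change was 0.71. Traf5, an adaptor of several TNF receptor family members, was lower, at -0.80 (edgeR QLF FDR = 0.00347).

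Among 19 genes grouped as other brakes, not all of which only restrain NF-κB, Bcl3 and Tnip2 were higher and Usp18 lower. Bcl3, a nuclear IκB protein that binds p50 and p52 dimers, had 84.8, 70.8 and 68.3 CPM in WT and 166, 119 and 129 CPM in KO (log2 fold change 0.89, edgeR QLF FDR = 0.00877). Without KO replicate 1 its log2 fold change was 0.72. The call of Tnip2, an A20-binding protein, was lost without KO replicate 1 (edgeR QLF FDR = 0.108). Of the 5 genes for the ubiquitin ligase that tags IκB for destruction, the shared components Skp1a and Rbx1 were higher, each at 0.51 on the log2 scale. The IκB-recognizing subunits Btrc and Fbxw11 were not called, at -0.09 and 0.19.

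Of 29 known NF-κB target genes, 25 were tested, 7 were higher and 1 was lower by the edgeR QLF test, or 32.0% in all against 18.8% of tested genes. Their median log2 fold change was 0.45. The list was chosen with earlier results of these data known, so its share of calls is a description and not a test. The number higher was 13 with DESeq2 and 3 without WT replicate 2. Without KO replicate 1 it was 7 of 24 tested. Il2ra, the gene for CD25, rose from 799, 744 and 726 to 2258, 2404 and 3073, and it is also a Treg cell marker. The receptors Tnfrsf9, Tnfrsf18 and Tnfrsf4 rose by 0.99, 0.81 and 0.60 on the log2 scale, and the survival gene Bcl2l1 by 0.64. Without KO replicate 1 these values were 0.88, 0.75, 0.53 and 0.57 in the same order. The chemokine gene Ccl5 rose by 2.53, or by 1.33 without KO replicate 1, where it stood at 194 CPM against 33.8 and 47.0 in the other KO libraries. Ier3, counted among the genes called higher, had 0.493 to 0.719 CPM in WT and 2.27 to 7.88 CPM in KO. It passed the filter only through the KO libraries, where it was high, so its call carries little weight. Without KO replicate 1 too few libraries remained above 1 CPM for a filter that asks for 3, and Ier3 was not tested. Cd83 was the exception and was lower, with a log2 fold change of -0.77 (edgeR QLF FDR = 0.00902). These targets are shared with other transcription factors, and in bulk RNA fewer cells of a kind and less RNA per cell cannot be told apart.

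**Figure D4:**
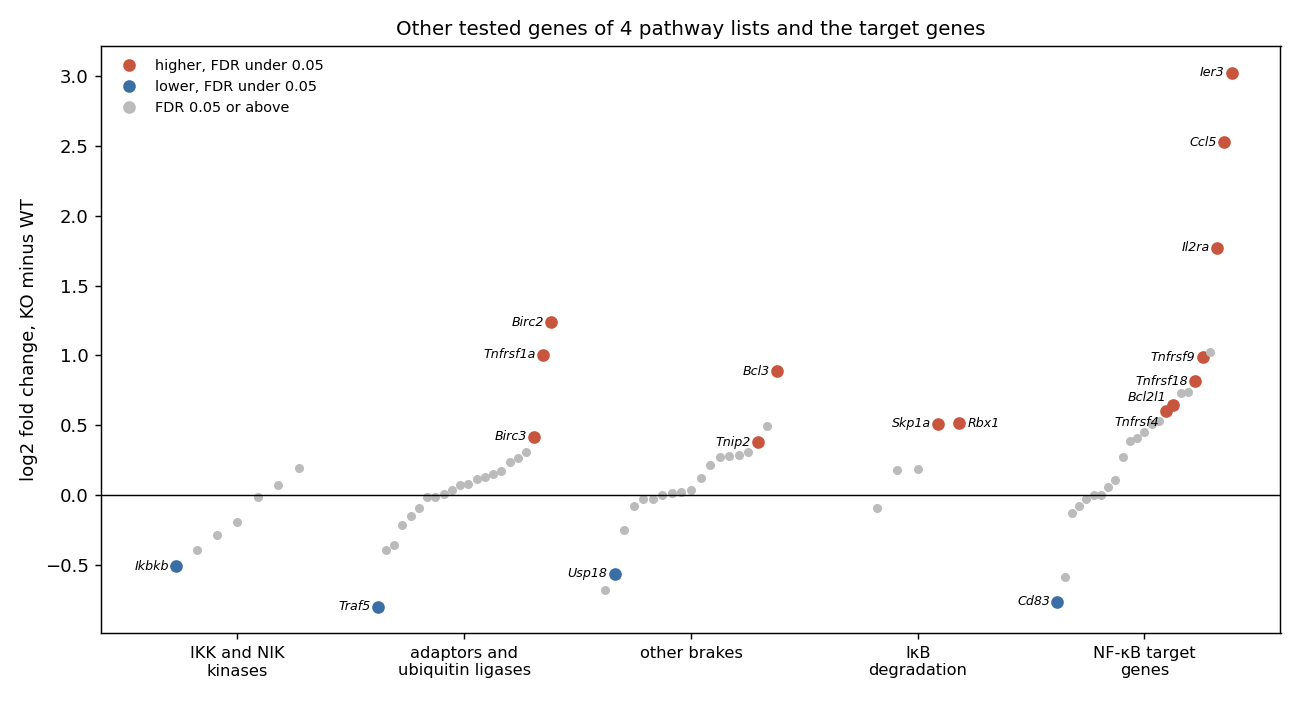
Log2 fold change, KO minus WT (vertical axis), of tested genes in 4 of the pathway lists and of the target genes, by list (horizontal axis), each dot a gene. Called genes are named, red where higher and blue where lower (Ikbkb at -0.51). Birc2 at 1.24 is the highest of the signalling lists, and Bcl3 at 0.89 is also among the genes called higher.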

How the data were processed

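Gene counts of 3 WT and 3 KO RNA-seq libraries from sorted splenic Treg cells were compared. Per the study's methods, the authors aligned single-end reads with HISAT to mm10 and counted them per gene with featureCounts without regard to strand; versions are not given in the sources used here. The deposited values are raw counts without normalization. Testing kept genes above 1 CPM in 3 or more libraries and used edgeR 4.0.16 (R 4.3.3) with TMM scaling, the QLF test and Benjamini-Hochberg adjustment, with no covariate. The SE is the log2 fold change divided by the square root of F. Correlations used log2 CPM (prior count 2) and permutation tests log2 of CPM plus 0.5. Alternatives covered RLE and library-size scaling, DESeq2 1.42.0, the likelihood ratio and exact tests, robust estimation, other filters and thresholds, a block on replicate number and leaving out each library. Replicates are separate samples per the labels; no pair of libraries agreed within sampling noise. Depth was 13883069 to 24042994 counts, so that 3 counts equal 0.125 to 0.216 CPM. The members and lists were chosen with earlier results of these data known. Every member is described, with list genes that passed the test, defining pathway genes, and the 3 genes most correlated with each member. A result of the pathway lists is counted but not otherwise reported here.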

Additional observations from a re-analysis of the deposited data

How the results depend on the processing

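Relb and Nfkbie kept their direction under every alternative run, and Rela, Nfkb2, Nfkbia and Nfkbiz did so as well. The number of members called higher (2) was 4 with DESeq2, 4 at an FDR under 0.1 and 0 at an FDR under 0.01, and ranged from 0 to 3 when each library was left out in turn, 0 without WT replicate 2 and 1 without WT replicate 1. The number called lower was 0 under every alternative. The median log2 fold change of the members (0.20) was 0.389 with the replicate block and 0.085 to 0.412 with a library left out. Members that were not called changed sign as follows. Nfkb1 went to -0.0426 with library-size scaling, and with a library left out it ranged from -0.0512 (without KO replicate 3) to 0.0797. Over the same refits Nfkbib ranged from -0.133 to 0.0282, positive without WT replicate 3 or KO replicate 3, and Rel from -0.55 to 0.00499, positive without WT replicate 3. Tnfaip3 ranged from -0.726 to 0.949, positive without WT replicate 3 or KO replicate 3, and was 0.419 with the replicate block. Nfkbia reached an FDR of 0.04999 under that block.

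The pathway genes called were 2 higher and 2 lower at an FDR under 0.01, 2 lower with the replicate block, and 1 to 7 higher and 1 to 6 lower with a library left out. Target genes called higher were 13 with DESeq2, 11 with the likelihood ratio and the exact test, 4 at an FDR under 0.01, 12 at an FDR under 0.1 and 3 to 11 with a library left out. All genes called were 490 higher and 196 lower at an FDR under 0.01, 1371 lower at an FDR under 0.1, 545 lower with the replicate block, and 483 to 1403 higher and 208 to 937 lower with a library left out. Fewer libraries per group, and a stricter or looser threshold, are part of how those alternatives are built, and for the rest the cause was not tested. Replicate numbers share no stated litter or day, and deviations of same-numbered libraries correlated at 0.07, -0.01 and -0.19. These values gave no sign that the numbers pair the libraries. Deviations centred within 3 libraries per group cannot exclude a shared litter or day. The spread within each group left the direction of Tnfaip3 unresolved at 3 libraries per group.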
